A study of Mus musculus with 58 samples.

Results

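The copy of the 45S pre-ribosomal RNA gene (Rn45s) that the mouse assembly mm9 places on chromosome 17 was examined in 9 peak lists of tagged RNA-binding proteins from mouse embryonic stem cells. Its members were chosen by position as all peaks that overlap the 15 kb window chr17:39975000-39990000, within which the copy takes up about chr17:39979900-39985800. The locus was selected because of its known values in these lists, so what follows describes it and no test was made of it. The rule found 9 peaks, 1 in each list, of 156215 peaks in all. No sequence of mm9 was used here, so the label of the locus rests on its position alone.

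Ribosomal RNA is made by RNA polymerase I in the nucleolus as one long precursor, which is then cut into the 18S, 5.8S and 28S RNAs. The genes lie in long tandem arrays that genome assemblies leave out for the most part, so reads from many nearly identical units can be placed on a single assembled copy. CIRH1A (UTP4), UTP3 and UTP6 belong to the small-subunit processome, the large particle that assembles on the nascent precursor and matures its 18S part. PSPC1 is a protein of nuclear paraspeckles, and hnRNPU, SAFB and SAFB2 are abundant nuclear RNA-binding proteins associated with the nuclear matrix. In RefSeq's table for the later build GRCm38, an 18S-related pseudogene, Rn18s-rs5, stands on chromosome 17 between Esp15, a gene of a secreted peptide family, and the long noncoding RNA AY036118. Positions of that build were not carried over to mm9.

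All cells were untreated embryonic stem cells of strain 129/Ola, and each immunoprecipitation used 5 µg of FLAG antibody. PSPC1 tagged at its own gene came from the line named AID-FB(KI)-PSPC1, built from CJ9 cells, in 2 libraries. Overexpressed hnRNPU, SAFB, SAFB2, CIRH1A, UTP3, UTP6 and PSPC1 came from lines named FB(OE), built from J1 cells with BirA, the ligase that biotinylates the tag, in 1 library each. Formaldehyde at 3% fixed the knock-in libraries and those of the ribosome factors CIRH1A, UTP3 and UTP6, and at 1% that of overexpressed PSPC1. For hnRNPU, SAFB and SAFB2 the protein crosslinker DSP at 2 mM preceded 1% formaldehyde, DNase I at 12 U/ml preceded sonication, and a streptavidin step followed the FLAG step. Whether a line is 1 clone was not given in the sources used here, and peak lists carry no expression values against which stem cell markers could be checked. Outside the knock-in pair no value has a replicate. Of the 58 samples of the series 49 were not analysed here, and they include the input libraries.

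The copy carried a peak in 9 of 9 lists. When the genome was cut into windows of the same 15 kb, 0.0913% of 180757 windows held a peak in all 9 lists. Single lists had a peak in 3.86% of the windows for SAFB2, 5.34% for CIRH1A, 5.78% for hnRNPU, 6.24% for SAFB and 8.02% for UTP3. The share was 9.02% and 10.9% in the knock-in replicates, 10.2% for overexpressed PSPC1 and 20.2% for UTP6. Of 67384 regions made by merging all peaks, 119 (0.177%) had a peak in every list. Since the presence of peaks chose the locus, these shares are its setting and not a test.

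In every list a single, unbroken peak covered the placed copy, taken as about 5900 bp, almost from end to end. Whether this copy holds the whole precursor was not tested, so its coverage describes the placed stretch alone. Knock-in replicate 1 had its peak at chr17:39979846-39986238, a width of 6393 bp, and replicate 2 at chr17:39979445-39986094, a width of 6650 bp. The mean knock-in width was 6522 ± 182 bp (SD, n = 2). Both knock-in peaks were wider than those of all 7 overexpressed proteins. The CIRH1A peak lay at chr17:39979629-39985807 (6179 bp), that of UTP3 at chr17:39979683-39986010 (6328 bp) and that of UTP6 at chr17:39979906-39986023 (6118 bp). Overexpressed PSPC1 had the narrowest peak, chr17:39979861-39985793 (5933 bp). The hnRNPU peak lay at chr17:39979895-39985861 (5967 bp), that of SAFB at chr17:39979861-39985872 (6012 bp) and that of SAFB2 at chr17:39979859-39985867 (6009 bp). These peaks covered 99.9% of the copy in the UTP6 and overexpressed PSPC1 lists and 100% in the other 7.

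The edges of the 9 peaks fell close together. Starts spread over 461 bp and ends over 445 bp. The stretch common to all lists, chr17:39979906-39985793, was 5888 bp long, 86.7% of the 6794 bp covered by any list. Between pairs of lists, the shared part of the peaks was 89.2 to 99.9% of their union, with a median of 95.0% over 36 pairs. SAFB and SAFB2, which are close relatives, shared 99.9%, and the knock-in replicates shared 92.0%. Among the other 118 regions with a peak in all lists, the common stretch was at most 84.6% of the region, and its median was 17.0%. That highest share, close to the copy's 86.7%, was on the contig 9_random from 241879 to 243708.

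**Figure D1:**
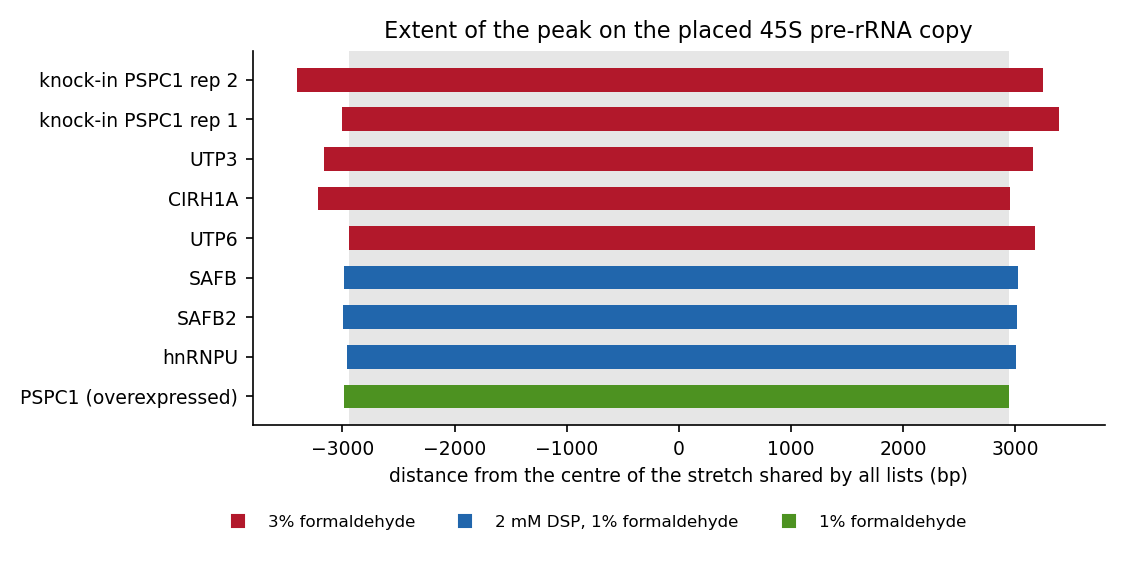
Each bar is the peak of 1 list on the placed 45S pre-rRNA copy, drawn in bp from the centre of the 5888 bp stretch that all 9 lists share (grey band) and coloured by fixation. The 5 lists fixed with 3% formaldehyde have peaks of 6118 to 6650 bp, and the other 4 lists have peaks of 5933 to 6012 bp.

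Peak width at the copy differed between the fixations. The 5 lists made with 3% formaldehyde had widths from 6118 to 6650 bp with a median of 6328 bp, and the other 4 had widths from 5933 to 6012 bp with a median of 5988 bp. The ranges did not overlap. Of the 118 other regions with a peak in all lists, 5.08% showed the same order, with every list of 3% formaldehyde wider than every other list. Each protein other than PSPC1 was fixed in 1 way, so fixation and protein cannot be told apart. PSPC1 itself had peaks of 6393 and 6650 bp in the knock-in lists and of 5933 bp when overexpressed, but these libraries differ in parental line and expression as well as in fixation.

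For its list, the peak on the copy was wide. It was the widest of the 22785 peaks of overexpressed PSPC1, at 18.2 times the median width of 326 bp. The next widest peak there had 5869 bp. For hnRNPU it was the 5th widest of 10279, for CIRH1A the 6th widest of 9689, for UTP3 the 15th widest of 14562 and for UTP6 the 22nd widest of 40217. Its width was 6.11 to 7.24 times the list's median in the lists of the 3 ribosome factors and 7.50 times in that of hnRNPU. In the SAFB2 list it was 38th of 6670 and in the SAFB list 121st of 10632, at 4.71 and 3.54 times the median. The knock-in lists hold many broader peaks, with 402 wider ones in replicate 1 and 342 in replicate 2, and the peak was 4.26 and 4.69 times their median.

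**Figure D2:**
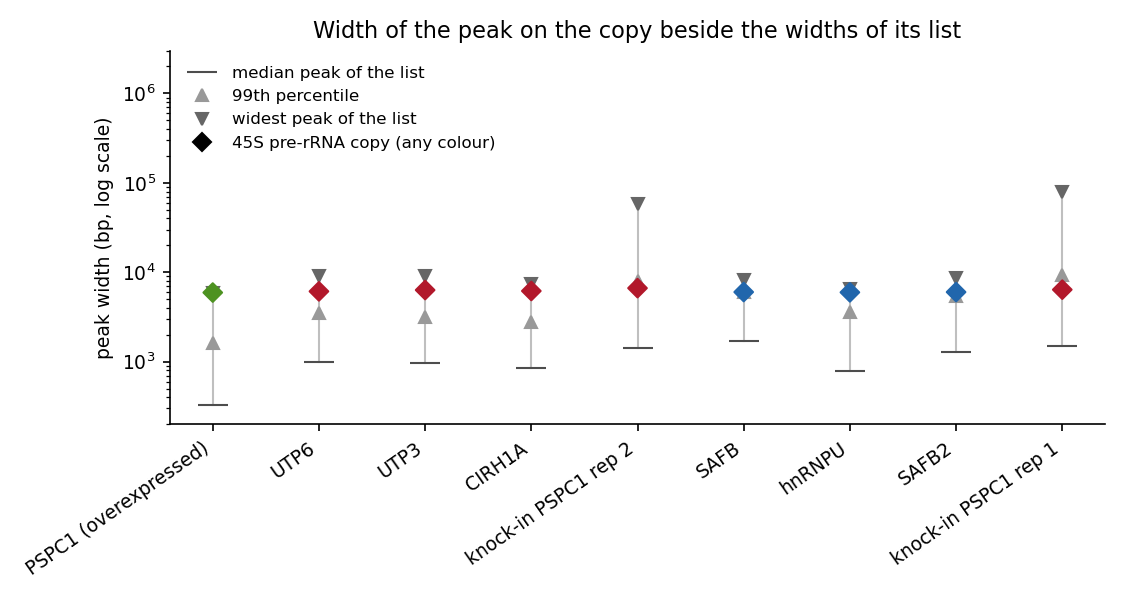
Peak widths in bp on a log axis for each list, in order of the score rank of the copy: the peak on the 45S pre-rRNA copy (diamonds, red for 3% formaldehyde, blue for DSP and green for 1% formaldehyde alone), the list's median, its 99th percentile and its widest peak. The copy is the widest peak of overexpressed PSPC1 at 5933 bp, while the widest knock-in peaks reach 78909 and 58633 bp.

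The authors' score of a peak has no stated unit and was read only as a rank within its own list, where 1 is the highest score and ties take the best rank. Scores pile up at 3100, which 1.7% of the peaks of knock-in replicate 1 and 1.22% of those of replicate 2 reached. In the other lists the share was 0.0199% for UTP6, 0.0282% for SAFB, 0.0389% for hnRNPU, 0.0439% for overexpressed PSPC1, 0.045% for SAFB2, 0.0549% for UTP3 and 0.0826% for CIRH1A. At the copy the score was 3100 in 5 lists, those of CIRH1A, UTP3, UTP6, overexpressed PSPC1 and knock-in replicate 2. It was 2481 in knock-in replicate 1, 1347 for hnRNPU, 1026 for SAFB2 and 932 for SAFB.

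Ranked within its list, the copy stood first for overexpressed PSPC1, where 9 other peaks had the same score. Its rank was 2 for CIRH1A and for UTP3, each with 6 peaks of the same score, and 3 for UTP6 with 5. In knock-in replicate 2 it was 7th, but 273 other peaks shared its score, and in replicate 1 it was 366th. With ties at their worst rank it was 280th in replicate 2, so much of this gap depends on how ties are ranked. The scores were 3100 in replicate 2 and 2481 in replicate 1. Of the 279 other peaks at or above the copy in replicate 2, 276 overlapped such a peak of replicate 1. The share over all peaks was not computed. The rank was 16 in the lists of SAFB and SAFB2 and 23 for hnRNPU.

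As a percentage of the list, with Wilson 95% intervals that cover counting error only, the rank was 0.00439% (0.000775 to 0.0249%) for overexpressed PSPC1, 0.00746% (0.00254 to 0.0219%) for UTP6, 0.0137% (0.00377 to 0.0501%) for UTP3 and 0.0206% (0.00566 to 0.0752%) for CIRH1A. Knock-in replicate 2 followed with 0.0305% (0.0148 to 0.0630%). The intervals of these 5 lists overlap, but they hold no replicate error, so their overlap decides no order. The 5 peaks share the score at which values pile up, so their order depends on how ties are ranked. With ties at their mean rank, replicate 2 stood at 0.626% and the others of these 5 at 0.0137 to 0.0516%. With ties at their worst rank, replicate 2 stood at 1.22%. The intervals of the 3 lists made with DSP also overlapped one another, with 0.150% (0.0927 to 0.244%) for SAFB, 0.224% (0.149 to 0.336%) for hnRNPU and 0.240% (0.148 to 0.389%) for SAFB2. Knock-in replicate 1 was last with 1.98% (1.79 to 2.19%). The knock-in lists reach down to a score of 30 and the others to 50.0, so these percentages rest on unlike limits. Among peaks with a score of at least 50, replicate 1 stood at 3.74% and replicate 2 at 0.0562%.

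**Figure D3:**
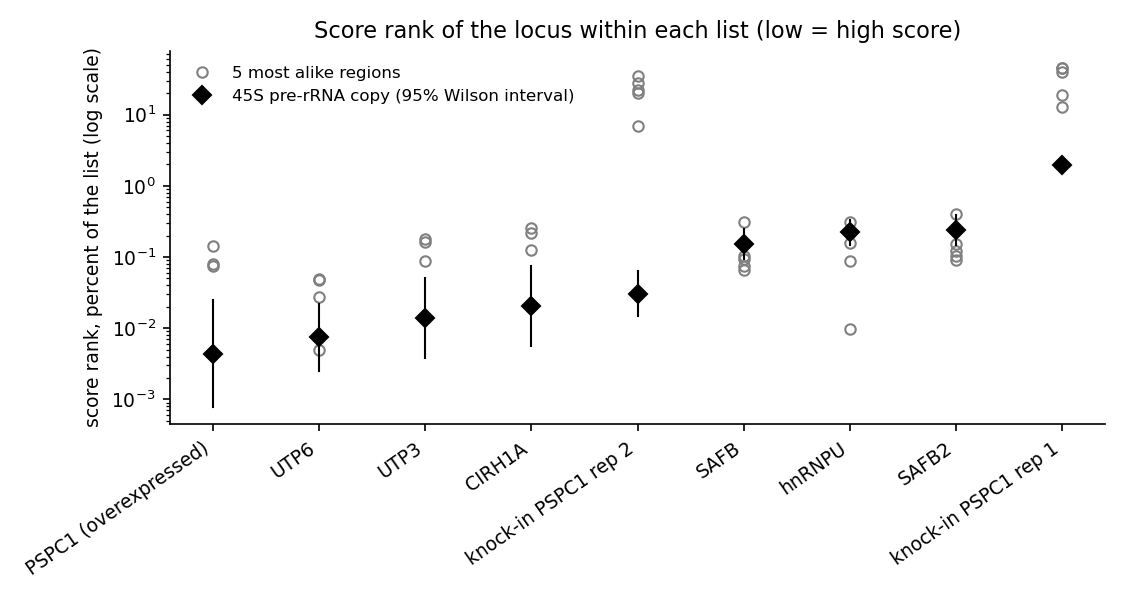
Score rank as a percentage of the list, on a log axis, for the 45S pre-rRNA copy (diamonds with Wilson 95% intervals) and for the 5 regions most like it (circles), in each of the 9 lists. The copy lies between 0.00439 and 1.98%, and the 5 regions lie far above it in both knock-in lists.

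The 3 ribosome factors were then set beside the other 6 lists. They covered a median of 41.2% of the 15 kb window (40.8 to 42.2%), against 40.1% (39.6 to 44.3%) in the others. The difference of 1.12 percentage points is less than the SD of 1.21 points between the 2 knock-in replicates. Against the 4 other overexpression lists alone, an alternative added after seeing the data, it was 1.27 points, slightly above that SD. The direction of the difference turned within the fixation that the ribosome factors share: the knock-in lists covered a median of 43.5%, 2.28 points more. Against the 4 other overexpression lists the ribosome factors had wider peaks without overlap, 6118 to 6328 bp against 5933 to 6012 bp, an order that 5.08% of the 118 other regions in all lists also showed.

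By score rank, CIRH1A, UTP3 and UTP6 had a median of 0.0137% (0.00746 to 0.0206%) and the other 6 lists one of 0.187% (0.00439 to 1.98%). The ranges overlap, and the difference of medians was -0.173 percentage points. It was smaller in size than the SD of 1.38 points between the knock-in replicates, taken with ties at their best rank. That SD depends on how ties are ranked. Replicate 1 stood at 1.98% under each way of ranking ties. Replicate 2 stood at 0.0305% at best, 0.626% at mean and 1.22% at worst rank. The place of overexpressed PSPC1 depends on how ties are ranked: with ties at their mean rank it stood at 0.0241%, between UTP6 at 0.0137% and UTP3 at 0.0343%. With scores divided by width it stood at 7.11%, and the ribosome factors at 0.269 to 1.01%. By width rank the medians were 0.0619% (0.0547 to 0.103%) and 0.854% (0.00439 to 2.18%). Overexpressed PSPC1, and hnRNPU with 0.0486%, lay beyond the ribosome factors. The difference of -0.792 points exceeded the knock-in SD of 0.486 points, and it was -0.247 points against the 4 other overexpression lists alone.

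The peaks that scored above the copy were few and narrow in the lists of the ribosome factors. For CIRH1A it was chr9:35112559-35113489 with a score of 3207, and for UTP3 chr9:35112495-35113434 with 3133. For UTP6 they were chr11:108872670-108873671 with 3177 and chr3:5860042-5861080 with 3164. Their widths lay between 931 and 1039 bp. Counting peaks of the same score, 7 other peaks reached the copy in each of these 3 lists, with median widths of 972 to 1060 bp. Such peaks were also narrow in the other overexpression lists. Their medians were 635 bp for overexpressed PSPC1, 639 bp for hnRNPU, 923 bp for SAFB and 1024 bp for SAFB2. No overexpressed PSPC1 peak scored above the copy. All 7 peaks of CIRH1A at or above the copy overlapped such a peak of UTP3 and of UTP6. Of these 7, 6 also overlapped such a peak of hnRNPU. For SAFB, SAFB2 and overexpressed PSPC1 the number was 5 each. The share over all peaks was not computed.

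Over the 7 overexpression lists, the peaks at or above the copy merged into 28 regions, of which 5 were at or above it in all 7 lists. These were chr15:74915454-74917978, chr2:98505909-98507927, chr9:35112495-35113596, chrX:166526685-166527607 and a stretch of the unplaced contig Un_random from 5495055 to 5497368. In these 5 regions the widest peak had 2525 bp, in the SAFB2 list. Over all 28 regions the widest peak at or above the copy had 4099 bp, in the SAFB list. None was as wide as the peak on the copy. In the knock-in lists none of the 28 regions was at or above the copy. There the copy and the peaks at or above it made up 1.98% and 1.22% of the lists. Of the 5, the chr15, chr2 and Un_random stretches had no knock-in peak. The chr9 stretch had one in replicate 2 alone, ranked at 13.4%, and the chrX stretch ranked at 12.7% and 6.97%.

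The knock-in peaks that reached the copy's score were broad. The 365 and 279 other peaks at or above it had median widths of 8207 and 8599 bp, and 246 and 191 of them were at least as wide as the copy's peak. None of them overlapped a peak at or above the copy in any overexpression list. Those lists held only 7 to 22 such peaks each, so the lack of overlap is a description. The share over all peaks was not computed. Knock-in and overexpression cells also differ in parental line, and the part of that difference was not tested.

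Other repeated or collapsed sequence was given the same count. On the contigs named _random, which hold sequence that mm9 could not place, the best peak ranked 1 to 3 in the 7 overexpression lists, level with or above the copy. In the knock-in lists the best such peak ranked 618 and 632, below the copy. Of the other peaks at or above the copy, those on these contigs were 5 of 22 for hnRNPU, 5 of 15 for SAFB and 4 of 15 for SAFB2. They were 2 of 9 for overexpressed PSPC1 and 1 of 7 for each ribosome factor. In the knock-in lists none of the 365 and 279 lay there. Of all peaks, these contigs held 0.637 to 1.69% in the overexpression lists and 0.775 and 0.641% in the knock-in lists. In the first 100 kb of assembled chromosome sequence, next to the centromere, the best overexpression ranks ran from 28 for SAFB to 73 for hnRNPU. They were 3085 and 4018 in the knock-in lists. Just past this limit, chr12:3109398-3110617 was at or above the copy in 4 overexpression lists and in no knock-in list. The mitochondrial genome had a single peak, in the SAFB2 list, at rank 5020. The number of ribosomal RNA units in these cells was not measured here and no input list was used, so the amount of protein per unit and the number of units behind the placed copy cannot be told apart, and the part of copy number in these scores was not tested.

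The peak stood alone. No list had a second peak in the window, and the nearest one outside it was a UTP6 peak 40115 bp to the right. On the left the nearest was 73450 bp away, also for UTP6. In the knock-in lists the nearest peaks were 614459 bp away in replicate 1 and 1869172 bp in replicate 2. Within 1 Mb on each side there were 1 and 0 further knock-in peaks, where chromosome 17 held 14.6 and 19.2 per 2 Mb on average. UTP6 had 17 against 36.1, UTP3 had 9 against 12.5, CIRH1A 3 against 8.25, overexpressed PSPC1 5 against 21.1 and hnRNPU 1 against 7.50. SAFB with 14 against 7.58 and SAFB2 with 7 against 5.12 had more peaks here than their average on the chromosome.

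Among the regions with a peak in all lists, the copy was the only one within the top 2% by score of every list and the only one with a peak of at least 5000 bp in every list. The first of these rests on knock-in replicate 1 at 1.98% and is lost under other settings: the rank there was 3.74% among peaks with a score of at least 50 and 5.49% among the 6670 highest scoring peaks. The next best by its worst rank was chr15:91736587-91741242, at 6.27%, and the next widest by its narrowest list was chr14:6167147-6174273, at 2167 bp. The median worst rank of the other 118 was 67.9%, and the median of their narrowest widths was 479 bp. These values come from the lists that chose the locus and are given as a description.

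**Figure D4:**
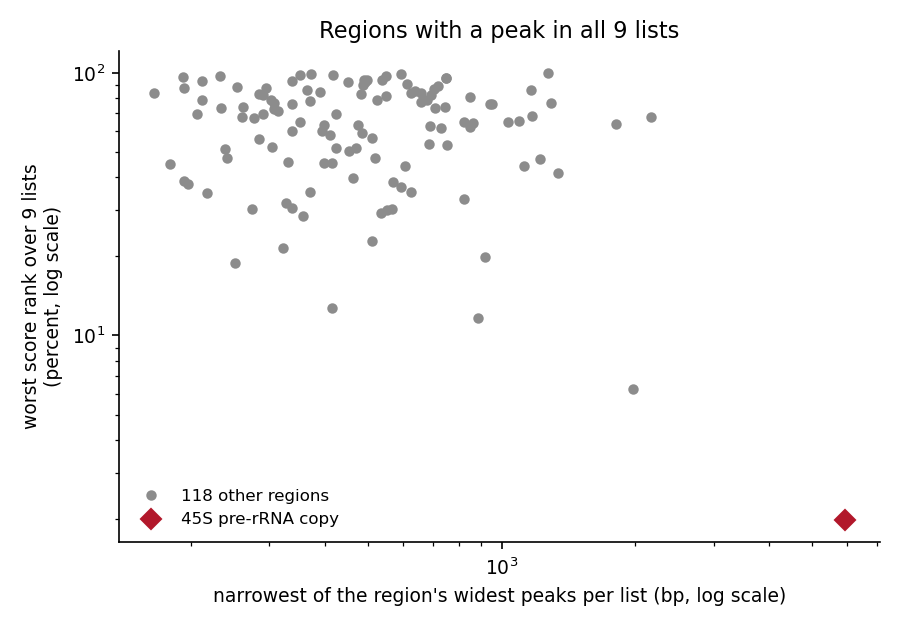
Each point is 1 of the 119 regions with a peak in all 9 lists, by the narrowest of its widths over the lists (bp, log axis) and by its worst score rank (percent, log axis). The 45S pre-rRNA copy, at 5933 bp and 1.98%, lies apart from the other 118 regions, of which the closest in rank is at 6.27%.

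The 5 regions whose ranks were most like those of the copy, by the mean absolute difference of log10 rank percent over 9 lists, were chrX:166526685-166527607 (0.58), chr3:5859911-5861557 (0.68), chr6:103598544-103599759 (0.92), chr18:40467190-40468536 (0.95) and Un_random from 3632196 to 3632967 (0.98). The median of all 118 was 2.43. In the overexpression lists these regions ranked near the copy, at 0.00439 to 0.405%. They differed from it in the knock-in lists, where they ranked at 12.7 to 45.6% in replicate 1 and 6.97 to 35.2% in replicate 2. They were also narrow, with widths of 179 to 1402 bp over all lists.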

How the data were processed

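The authors deposited 1 peak list per library, with position, name and score, and replicates were not pooled. The deposited score is that of a MACS caller, per the peak names in the files, and its unit, version, threshold and control are not given in the sources used here. The submitters' processing notes name mm9, CASAVA, Bowtie2 and TopHat with no role. The lowest score was 30 in the knock-in lists and 50.0 in the others. Read depth is unknown. Starts were raised by 1, so positions count from 1.

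Peaks sharing at least 1 bp were merged over lists. Score and width were ranked within each list. Wilson intervals (95%) describe counting error alone, as the peaks of a list are no replicates. Procedures were tested on simulated lists. The members, lists and comparisons were chosen with earlier results of these data known. Named regions are the members, the 5 regions most like them, and peaks above the copy where a list had 5 or fewer. The regions at or above the copy in all 7 overexpression lists, the comparison by fixation and the next best regions were added after their values were seen. A planned list of ribosomal RNA synthesis genes was not run, since no mm9 annotation was used here. Scripts ran in Python 3.11.15 with pandas 2.3.3, numpy 2.4.6 and scipy 1.17.1, and plots were drawn with matplotlib 3.10.9.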

Additional observations from a re-analysis of the deposited data

How the results depend on the processing

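The copy kept its peak in 9 lists with a score of at least 50, with the 6670 highest scoring peaks of each list and on chromosomes 1 to 19 and X. None of these settings could remove it. Its lowest score was 932, its worst rank was 366 and it lies on chromosome 17. The difference in covered part between ribosome factors and other lists reversed to -2.28 points against the knock-in lists alone, and it was 0 on the copy itself, which every list covered almost whole. It was 0.92 to 1.62 points without each list in turn. The difference in score rank moved to -1.63 points when scores were divided by width, and was -0.210 to -0.137 without each list in turn. That division put the copy at 7.11% in the overexpressed PSPC1 list and 3.35% in the hnRNPU list. The difference in width rank moved to -1.78 points against the knock-in lists and, in an alternative added after seeing the data, to -0.247 against the other overexpression lists. It was -1.08 to -0.508 without each list in turn. Knock-in replicate 1 moved to 3.74% with a score of at least 50 and to 5.49% with 6670 peaks per list, and replicate 2 to 1.22% with ties at their worst rank. Of 63 score ranks of single lists under alternatives, 19 moved beyond their interval, and the cause was not tested. These were 9 of 9 with scores divided by width, and 4 of 9 each with equal numbers of peaks and with ties at their worst rank. With ties at their mean rank and with a score of at least 50, 1 of 9 moved. The latter left the overexpression lists unchanged, since their lowest score was already 50.0. Taking the lowest scoring peak of the window could move none, since each list had 1 peak there. Of the 5 most alike regions, 1 was kept under the largest difference and 0 under width ranks. No paired analysis was possible because 7 of the 8 groups hold 1 library each. Unknown read depth limits every statement on ranks.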
